A study of Mus musculus with 18 samples.

Results

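Mouse pluripotent cells without Apc function were compared with pluripotent cells that have it, with 4 Apc-deficient arrays set against 4 Apc-intact arrays out of 18 in the series. The Apc-deficient arrays were RTC#1, RTC#2 and RTC#3, which are lines of reprogrammed colon tumour cells, and an Apc Min/Min embryonic stem cell (ESC) line. The Apc-intact arrays were derivative #45 of RTC#1, derivative #9 of RTC#3, an Apc +/+ ESC line and an Apc Min/+ ESC line. Each array measured RNA of 1 line on a whole-transcript microarray, and 1248 of the 12281 genes tested had all 4 values of one arm outside the range of the other. The Min allele carries a truncating mutation of Apc, so that Min/Min cells have no full-length Apc and Min/+ cells have a normal copy. The sample labels state neither the Apc genotype of the RTC lines nor the change made in the derivatives. As background from outside the labels, the RTC lines were made by reprogramming cells from intestinal tumours of Apc-mutant mice, and the derivatives are taken here as RTCs in which Apc function was restored. Each RTC line, derivative and ESC genotype is represented by 1 array, and the labels do not say whether a derivative is a single clone. The growth notes list a LIF-containing medium for RTCs, derivative #45 and ESCs, and also a trophoblast stem cell medium with FGF4 for Min/Min ESCs, without saying which medium the Apc Min/Min array had. Medium and genotype therefore cannot be told apart in that array.

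Apc is the scaffold of the destruction complex, which marks beta-catenin for degradation when no Wnt ligand is present. Without Apc, beta-catenin accumulates, enters the nucleus and, with Tcf/Lef factors, switches on Wnt target genes, several of which encode inhibitors that damp the pathway. In mouse ESCs, beta-catenin also relieves repression by Tcf7l1 (Tcf3) and so favours the naive pluripotent state over the primed state that precedes lineage commitment.

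Levels are log2 intensities after quantile normalization of all 18 arrays together, with 1 probe set per gene. For each gene, values of the Apc-deficient arrays are listed as RTC#1, RTC#2, RTC#3 and Apc Min/Min ESC, and those of the Apc-intact arrays as #45, #9, Apc +/+ ESC and Apc Min/+ ESC. Differences are means of the Apc-deficient minus means of the Apc-intact arrays on the log2 scale, with standard errors (n = 4 each). The test was limma's moderated test over all 12281 genes with Benjamini-Hochberg adjustment, and a gene was called at an adjusted p below 0.05. Nothing in the labels says whether the arrays of an arm came from separate cultures, and the number of arrays limits the precision. RTC#2 and RTC#3 were closer than any other pair except the 2 Apc-intact ESC lines: 24 genes lay 2-fold or more apart between RTC#2 and RTC#3 and 16 between the Apc +/+ and Apc Min/+ ESCs. Between other pairs the number ran between 339 and 2219 genes, and the Apc Min/Min array differed from each of the others at 1161 or more genes.

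Of the 12281 genes, 132 (1.07%) rose and 161 (1.31%) fell in the Apc-deficient arrays. Among these 293 genes, 180 differed 2-fold or more. The arms did not overlap for 442 genes that were higher (3.6% of all tested) and 806 that were lower (6.56%), with median differences of 0.68 and -0.56. Of the called genes 291 had no overlap, and the 2 exceptions were Fgfr2, an FGF receptor, and Lilrb4a, an inhibitory leukocyte receptor. Of the genes with no overlap 957 did not pass the test. Those that lay 2-fold or more apart numbered 107 higher and 125 lower, and 15 higher and 11 lower genes lay 4-fold or more apart. At the edge of the no-overlap rule, Notch3 had 8.91, 9.02, 9.07 and 9.10 in the Apc-deficient arrays, against 9.10, 9.72, 9.24 and 9.46 in the Apc-intact arrays, a gap of 0.0002. Just outside it, Znrd1 had 11.49, 11.76, 11.76 and 11.42 in the Apc-deficient arrays, against 11.05, 10.83, 11.14 and 11.42 in the Apc-intact arrays, the lowest Apc-deficient value meeting the highest Apc-intact one. The called count was sensitive to single arrays: it was 176 without RTC#1, 142 without RTC#2, 139 without RTC#3, 170 without derivative #45, 157 without the Apc +/+ ESCs and 138 without the Apc Min/+ ESCs, against 320 without derivative #9 and 359 without the Apc Min/Min ESCs. On the values as deposited 118 genes were called, 66 higher and 52 lower (55.9% higher, against 45.1% here). With arrays centred on their medians 362 were called, 110 higher and 252 lower (30.4% higher), and there the median of all genes stood at -0.15, against -0.03 here. All 293 called genes kept their sign under both scalings.

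Neither Apc nor the core pluripotency genes separated the arms. Apc itself had 10.20, 10.08, 10.04 and 10.97 in the Apc-deficient arrays, against 9.86, 10.47, 10.25 and 10.65 in the Apc-intact arrays, a difference of 0.02 ± 0.24 (adjusted p = 0.989), and the arms overlapped. The probe set for Apc reads the whole transcript, including RNA of a truncated allele, so that its level checks no label. Ctnnb1, which encodes beta-catenin, differed by -0.01 ± 0.15 (adjusted p = 0.994). Pou5f1, the pluripotency factor Oct4, had 12.98, 13.13, 13.16 and 12.91 in the Apc-deficient arrays, against 13.08, 13.05, 13.00 and 13.00 in the Apc-intact arrays, and Nanog had 13.26, 13.42, 13.48 and 13.38 in the Apc-deficient arrays, against 13.27, 13.28, 13.27 and 13.32 in the Apc-intact arrays. Both were high in all 8 arrays and overlapped between the arms, with differences of 0.01 ± 0.13 (adjusted p = 0.985) for Pou5f1 and 0.10 ± 0.12 (adjusted p = 0.83) for Nanog. The signs of these small values for Apc, Ctnnb1, Pou5f1 and Nanog changed with the scaling or with the arrays included.

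Wnt feedback and direct target genes gave 7 of the 132 rises. Of the 23 tested genes of this list, 9 were higher with no overlap and 1 was lower, and 7 rose and none fell, with a list median of 0.32 against -0.03 for all genes. The 7 that rose were Axin2, Nkx1-2, Cdx2, Sp5, Cdx1, Tnfrsf19 and Rnf43. For this list and those below, the background with no overlap is 3.6% of all tested genes higher and 6.56% lower. The background of calls is 1.07% higher and 1.31% lower. All lists were drawn up with earlier results of these data known, so the direction of a list is no independent evidence. Axin2, a scaffold of the destruction complex that is itself a general Wnt feedback target, had 10.57, 10.44, 10.41 and 10.90 in the Apc-deficient arrays, against 8.26, 8.72, 8.41 and 8.61 in the Apc-intact arrays. It rose by 2.08 ± 0.17 (adjusted p = 0.000405), 4.22-fold, and every RTC line and the Apc Min/Min ESCs lay well above every Apc-intact array. Nkx1-2, a homeobox gene of the late primitive streak and tail bud, had 10.17, 10.57, 10.53 and 10.65 in the Apc-deficient arrays, against 7.98, 7.68, 7.25 and 7.17 in the Apc-intact arrays. Its rise of 2.96 ± 0.21 (adjusted p = 0.000217) was the largest of the list. Cdx2, a caudal homeobox factor of the trophectoderm and the intestine, had 8.34, 8.98, 9.12 and 9.48 in the Apc-deficient arrays, against 6.88, 7.21, 7.04 and 7.10 in the Apc-intact arrays and rose by 1.92 ± 0.23 (adjusted p = 0.00228). RTC#1 was the lowest of the Apc-deficient arrays for Cdx2 and was still above all Apc-intact arrays.

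Sp5, a zinc finger factor that acts in feedback on Wnt targets, had 9.04, 9.20, 9.20 and 8.65 in the Apc-deficient arrays, against 7.40, 7.52, 7.21 and 7.44 in the Apc-intact arrays and rose by 1.63 ± 0.16 (adjusted p = 0.00111). Cdx1, the other caudal factor of the intestine, rose by 1.63 ± 0.27 (adjusted p = 0.0129) and was lowest among the Apc-deficient arrays in the Apc Min/Min ESCs, at 9.31. Rnf43, a ubiquitin ligase that removes Wnt receptors from the cell surface, had 8.29, 8.34, 8.17 and 7.98 in the Apc-deficient arrays, against 7.14, 7.21, 6.99 and 7.44 in the Apc-intact arrays and rose by 1.00 ± 0.15 (adjusted p = 0.0086). Tnfrsf19 (Troy), a receptor that marks intestinal stem cells, rose by 1.32 ± 0.28 (adjusted p = 0.0387), but derivative #9 stood at 9.05, close to the lowest Apc-deficient value of 9.40. Leaving out 1 array at a time ended the call of Cdx1 for 1 of the 8 arrays (adjusted p up to 0.051, without the Apc Min/+ ESCs) and Tnfrsf19 for 7 of the 8 arrays (adjusted p up to 0.126, without the Apc Min/+ ESCs). The RTC line as a replicate block ended the call of Tnfrsf19 (adjusted p = 0.0677), and the values as deposited that of Rnf43 (adjusted p = 0.0844) and Tnfrsf19 (adjusted p = 0.0707). In contrast to these, Lef1, the Tcf/Lef factor that is itself a target, differed by 0.74 ± 0.19 (adjusted p = 0.077), and Notum, a secreted Wnt deacylase, by 0.63 ± 0.22 (adjusted p = 0.205). Neither was called although the arms did not overlap. Nkd2, a cytoplasmic feedback inhibitor, had the opposite sign, at -0.54 ± 0.20 (adjusted p = 0.246), and was not called.

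**Figure D1:**
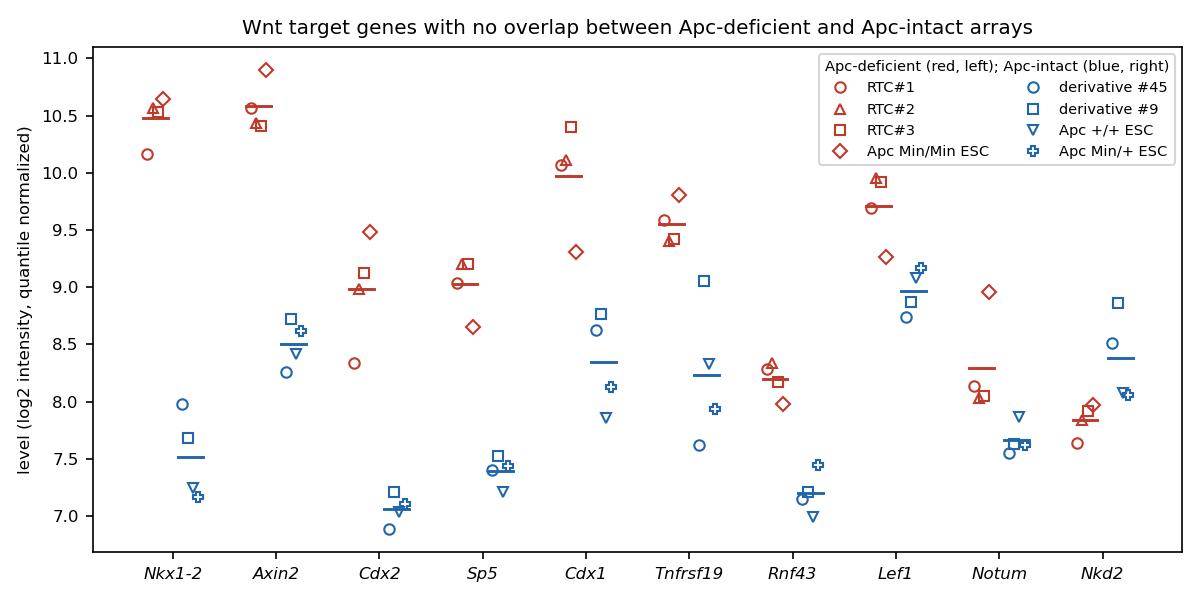
Level of each gene of the Wnt feedback and direct target list whose values did not overlap between the arms (y axis, log2 intensity after quantile normalization). Each symbol is 1 array and each line the mean of 4, with Apc-deficient arrays on the left of each gene and Apc-intact arrays on the right. In 9 of the 10 genes the Apc-deficient arrays are higher, and Nkd2 is the exception.

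Members of the list that the arms did not separate included Dkk1, a secreted Wnt inhibitor, at 7.69, 9.89, 9.34 and 11.91 in the Apc-deficient arrays, against 8.08, 7.38, 8.43 and 7.99 in the Apc-intact arrays. RTC#1 lay inside the Apc-intact range and the other 3 Apc-deficient arrays above it, and the difference was 1.74 ± 0.70 (adjusted p = 0.301). Lgr5, the R-spondin receptor that marks intestinal stem cells, was near the lower end of the scale in the RTCs, with 6.42, 6.48, 6.32 and 8.32 in the Apc-deficient arrays, against 6.57, 6.46, 7.01 and 6.74 in the Apc-intact arrays, and only the Apc Min/Min array stood above the rest. It differed by 0.19 ± 0.40 (adjusted p = 0.904). Ccnd1, which encodes cyclin D1, differed by -0.19 ± 0.21 (adjusted p = 0.791), and Myc by 0.11 ± 0.41 (adjusted p = 0.956). Of the 17 tested intestinal stem cell genes, 4 were higher and 2 lower with no overlap, and the 3 that rose (Axin2, Rnf43 and Tnfrsf19) are also in the Wnt list.

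The promoters of 3 genes that rose are shown. They are the general feedback target, the largest rise of the list and the one promoter with a Tcf/Lef core motif among those searched. Sequences are from RefSeq (GRCm38.p6), 5′ to 3′ on the gene's strand, each 300 bases long with 250 before and 50 after the start. Capitals mark CTTTGA, the core of the Tcf/Lef motif, searched on both strands, and CTTTGAT, which contains it. The first entry was taken where the table held several for a gene.
Axin2 (chr11:108920099-108920398, plus strand): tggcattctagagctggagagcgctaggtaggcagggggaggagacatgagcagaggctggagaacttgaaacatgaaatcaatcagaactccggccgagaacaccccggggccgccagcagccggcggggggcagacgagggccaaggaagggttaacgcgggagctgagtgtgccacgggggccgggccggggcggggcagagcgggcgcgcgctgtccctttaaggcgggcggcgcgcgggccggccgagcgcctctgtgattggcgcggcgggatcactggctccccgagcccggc
Nkx1-2 (chr7:132599588-132599887, minus strand): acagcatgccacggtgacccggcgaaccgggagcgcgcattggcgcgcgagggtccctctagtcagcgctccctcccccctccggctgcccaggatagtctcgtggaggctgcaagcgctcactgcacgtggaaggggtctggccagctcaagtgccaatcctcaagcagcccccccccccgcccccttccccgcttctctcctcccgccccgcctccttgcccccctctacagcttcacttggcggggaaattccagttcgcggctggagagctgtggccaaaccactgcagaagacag
Sp5 (chr2:70474673-70474972, plus strand): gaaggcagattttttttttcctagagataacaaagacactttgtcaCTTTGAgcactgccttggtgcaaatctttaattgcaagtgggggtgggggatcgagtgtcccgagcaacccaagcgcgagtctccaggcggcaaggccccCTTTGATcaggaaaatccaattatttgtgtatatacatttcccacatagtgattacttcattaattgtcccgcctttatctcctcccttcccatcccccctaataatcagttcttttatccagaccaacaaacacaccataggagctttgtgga
The Sp5 promoter held 2 matches of CTTTGA, of which 1 was also CTTTGAT, and the Axin2 and Nkx1-2 windows held none. Promoters were searched for the Wnt genes that were higher with no overlap. Cdx1 was left out because it lies on the chromosome of Apc, and Notum had no promoter entry. Of the 7 promoters searched, 1 held CTTTGA (14.3%), against 16.2% of 27025 promoters of all genes and 11.6% of 9815 promoters of genes tested. Among genes that rose, 17 of 104 promoters held it (16.3%), and among genes that fell, 14 of 119 did (11.8%). CTTTGAT was in 7 of the promoters of genes that rose (6.73%), in 1 of those of genes that fell (0.84%) and in 2.58% of those of all genes tested. Over the larger sets with no overlap it was in 14 of 356 promoters of higher genes (3.93%) and in 22 of 646 of lower genes (3.41%), and CTTTGA was in 15.2% and 13%. A match describes these letters in this window and is not a bound site.

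Few genes of the Wnt ligands, receptors and secreted inhibitors were called. Of 14 tested ligand and secretion genes, 1 was higher and 2 were lower with no overlap, and none was called. Wnt7b was the furthest of these, with 7.51, 7.44, 7.56 and 7.36 in the Apc-deficient arrays, against 8.75, 7.85, 9.62 and 9.53 in the Apc-intact arrays and a difference of -1.47 ± 0.34 (adjusted p = 0.0563). The Apc-intact ESC lines were the highest for it, and derivative #9 lay close to the RTCs. Wnt5b differed by 0.56 ± 0.14 (adjusted p = 0.0664) and Rspo1, a secreted enhancer of Wnt signalling, by -0.64 ± 0.18 (adjusted p = 0.123). Among 24 tested receptors and secreted inhibitors, 1 was higher and 5 were lower with no overlap. Fzd10, a Frizzled receptor, had 9.62, 9.61, 9.89 and 9.49 in the Apc-deficient arrays, against 8.45, 7.92, 8.76 and 8.39 in the Apc-intact arrays and rose by 1.27 ± 0.19 (adjusted p = 0.00781). Sfrp2, a secreted inhibitor that binds Wnt ligands, had 7.62, 7.79, 7.55 and 8.81 in the Apc-deficient arrays, against 9.68, 9.52, 9.42 and 9.20 in the Apc-intact arrays and differed by -1.51 ± 0.27 (adjusted p = 0.0181), with the Apc Min/Min ESCs nearest to the Apc-intact arrays. With single arrays left out, limma no longer called Sfrp2 for 5 of the 8 arrays (adjusted p up to 0.0644, without derivative #45). With the RTC line as a replicate block Sfrp2 (adjusted p = 0.0722) missed the threshold. Fzd7, the receptor described as the main Frizzled of ESCs, differed by -0.81 ± 0.18 (adjusted p = 0.0525) and Fzd8 by -0.50 ± 0.12 (adjusted p = 0.0718), neither called.

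Of the 24 tested genes of the destruction complex and its Tcf factors, 1 was called and it was also the one with no overlap. Tcf7l1, the Tcf factor that represses pluripotency genes in ESCs, had 9.71, 10.12, 10.26 and 10.10 in the Apc-deficient arrays, against 10.89, 11.21, 10.93 and 11.16 in the Apc-intact arrays and differed by -1.0 ± 0.16 (adjusted p = 0.0117). Tcf7l1 (adjusted p = 0.159) missed the threshold on the values as deposited. The scaffold Axin1 and the kinase Gsk3b differed by -0.01 and 0.03 and Tcf7l2 by 0.30, none called.

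Several of the deepest falls were in genes of the primed state, in neural genes and in the Nodal inhibitor Lefty1. Of 17 tested formative and primed genes, 7 were lower and 1 was higher with no overlap, and 4 fell and none rose, with a list median of -0.48. Otx2, the homeobox factor that drives exit from the naive state, had 7.38, 6.85, 6.87 and 7.68 in the Apc-deficient arrays, against 10.98, 9.06, 10.79 and 10.57 in the Apc-intact arrays and differed by -3.16 ± 0.39 (adjusted p = 0.00325). All Apc-deficient values were low, and derivative #9 was the lowest of the Apc-intact arrays. Zic2 had 8.77, 8.64, 8.84 and 9.03 in the Apc-deficient arrays, against 11.38, 11.65, 10.49 and 10.61 in the Apc-intact arrays and Zic5 had 9.88, 10.14, 10.08 and 9.15 in the Apc-deficient arrays, against 12.01, 12.22, 11.08 and 11.07 in the Apc-intact arrays. These zinc finger factors of the epiblast and neural plate differed by -2.21 ± 0.26 (adjusted p = 0.00223) and -1.79 ± 0.32 (adjusted p = 0.0181), with the derivatives above the Apc-intact ESC lines for both. Grhl2, an epithelial factor of formative cells, fell by 1.22 on the log2 scale (SE 0.17, adjusted p = 0.00578). Dnmt3a, a DNA methyltransferase, differed by -1.34 ± 0.36 (adjusted p = 0.103), Fgf5, a marker of primed cells, by -0.52 ± 0.19 (adjusted p = 0.237) and Pim2, a kinase, by -0.70 ± 0.18 (adjusted p = 0.0855), with no overlap and no call. This call depended on single arrays, and leaving 1 out ended that of Zic5 for 2 of the 8 arrays (adjusted p up to 0.0644, without derivative #45). On the values as deposited, Grhl2 (adjusted p = 0.079) missed the threshold.

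Naive pluripotency genes changed in both directions. Of 27 tested, 4 were higher and 3 lower with no overlap, and 3 rose and 1 fell, with a list median of 0.08. Tbx3, a T-box factor of the naive network, had 12.06, 11.83, 11.74 and 11.81 in the Apc-deficient arrays, against 10.57, 11.16, 10.46 and 10.78 in the Apc-intact arrays and rose by 1.12 ± 0.17 (adjusted p = 0.00979). Gbx2, a homeobox gene downstream of LIF, rose by 1.04 ± 0.19 (adjusted p = 0.0193), and Nr5a2, a nuclear receptor, by 1.00 ± 0.22 (adjusted p = 0.0471). Tfcp2l1, a factor of the naive network, differed by 0.58 ± 0.20 (adjusted p = 0.213), uncalled. Dppa3 (Stella), a gene of naive and germ cells, had 8.07, 8.24, 8.60 and 6.99 in the Apc-deficient arrays, against 10.51, 9.11, 9.37 and 9.79 in the Apc-intact arrays and differed by -1.72 ± 0.38 (adjusted p = 0.0466). The highest Apc-deficient value for Dppa3 was in RTC#3 and the lowest Apc-intact value in derivative #9. Pecam1 and Fgf4 differed by -0.95 ± 0.28 (adjusted p = 0.138) and -0.66 ± 0.20 (adjusted p = 0.154), with no overlap and no call. Leaving out 1 array at a time ended the call of Gbx2 for 4 of the 8 arrays (adjusted p up to 0.0765, without RTC#2), Nr5a2 for 8 of the 8 arrays (adjusted p up to 0.119, without RTC#2) and Dppa3 for 6 of the 8 arrays (adjusted p up to 0.134, without the Apc Min/+ ESCs). With the RTC line as a replicate block Gbx2 (adjusted p = 0.0764) and Dppa3 (adjusted p = 0.0547) missed the threshold, and on the values as deposited Tbx3 (adjusted p = 0.127), Gbx2 (adjusted p = 0.204) and Nr5a2 (adjusted p = 0.27) did.

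In the Nodal pathway, 1 of 15 tested genes was higher and 3 were lower with no overlap, and 2 were called, both lower. Lefty1, a secreted inhibitor and target of Nodal signalling, had 7.87, 7.70, 7.57 and 7.80 in the Apc-deficient arrays, against 12.04, 11.51, 10.56 and 10.60 in the Apc-intact arrays. Its difference of -3.45 ± 0.31 (adjusted p = 0.000741) was the largest fall of all genes, with the derivatives above the Apc-intact ESC lines. Lefty2, its paralog, had 8.37, 7.41, 7.04 and 7.86 in the Apc-deficient arrays, against 10.49, 8.28, 9.43 and 9.50 in the Apc-intact arrays, where RTC#1 lay above derivative #9, and was not called (adjusted p = 0.0732). Skil, a repressor and feedback target of Smad signalling, differed by -0.75 ± 0.16 (adjusted p = 0.045). With single arrays left out, limma no longer called Skil for 7 of the 8 arrays (adjusted p up to 0.124, without RTC#2). Not called with the RTC line as a replicate block was Skil (adjusted p = 0.103), and not called as deposited was Skil (adjusted p = 0.356). Nodal itself differed by 0.05 ± 0.17 (adjusted p = 0.946) and its co-receptor Tdgf1 by 0.18 ± 0.14 (adjusted p = 0.641). Of 24 tested FGF and ERK feedback genes, 1 was higher and 5 were lower with no overlap and 1 was called. That gene, Fgfr2, had 7.44, 7.41, 7.50 and 8.77 in the Apc-deficient arrays, against 8.66, 9.23, 9.53 and 9.47 in the Apc-intact arrays, where the Apc Min/Min value lay inside the Apc-intact range, and differed by -1.45 ± 0.32 (adjusted p = 0.049). This call depended on single arrays, and leaving 1 out ended that of Fgfr2 for 7 of the 8 arrays (adjusted p up to 0.148, without the Apc Min/+ ESCs). On the values as deposited, Fgfr2 (adjusted p = 0.0661) missed the threshold. Of 21 tested BMP pathway genes, 1 had no overlap (Id4, 0.39) and none was called.

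Of the neural and neuroendocrine genes, 6 neural and neuroendocrine genes fell. Of 20 tested, 7 were lower and 1 was higher with no overlap, 1 rose, and the list median was -0.48. Ina, which encodes the neuronal intermediate filament alpha-internexin, had 7.07, 7.67, 7.79 and 8.02 in the Apc-deficient arrays, against 10.69, 10.66, 11.50 and 11.21 in the Apc-intact arrays and differed by -3.38 ± 0.25 (adjusted p = 0.000242). Crmp1, a cytoskeletal protein of axon guidance, had 7.52, 8.0, 8.14 and 7.56 in the Apc-deficient arrays, against 10.82, 11.01, 10.44 and 10.45 in the Apc-intact arrays and differed by -2.88 ± 0.20 (adjusted p = 0.000217). Neurod1, a basic helix-loop-helix factor of neurons and endocrine cells, had 6.82, 6.73, 6.90 and 6.16 in the Apc-deficient arrays, against 9.64, 10.22, 8.81 and 9.28 in the Apc-intact arrays and differed by -2.83 ± 0.29 (adjusted p = 0.00111). For each of these 3 genes the gap between the arms was wider than the spread within either arm. Tubb3, the neuronal beta-tubulin, differed by -1.31 ± 0.16 (adjusted p = 0.00253), Insm1, a neuroendocrine zinc finger factor, by -1.29 ± 0.17 (adjusted p = 0.00471) and Pax6 by -1.50 ± 0.29 (adjusted p = 0.0281). Gad1, the enzyme that makes the transmitter GABA, was the member that rose, by 1.01 ± 0.18 (adjusted p = 0.018). Leaving out 1 array at a time ended the call of Pax6 for 4 of the 8 arrays (adjusted p up to 0.0912, without RTC#2) and Gad1 for 3 of the 8 arrays (adjusted p up to 0.0656, without the Apc Min/+ ESCs). With the RTC line as a replicate block Pax6 (adjusted p = 0.0536) missed the threshold, and on the values as deposited Gad1 (adjusted p = 0.0661) did.

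Among 24 tested epithelial genes, 6 were lower and 1 was higher with no overlap, against 6.56% and 3.6% of all genes, and 3 fell. Rab25, an epithelial small GTPase of recycling endosomes, had 7.62, 7.47, 7.55 and 7.51 in the Apc-deficient arrays, against 10.22, 8.66, 10.24 and 10.50 in the Apc-intact arrays and differed by -2.37 ± 0.35 (adjusted p = 0.00757). Esrp1, an epithelial splicing regulator, differed by -1.65 ± 0.26 (adjusted p = 0.00948), and Grhl2 was the third. Epcam, an adhesion molecule of ESCs and epithelia, differed by -0.54 ± 0.15 (adjusted p = 0.128) and Cldn3, a claudin of tight junctions, by -0.96 ± 0.28 (adjusted p = 0.13), uncalled, and Grhl3 went the other way, by 0.72 ± 0.17 (adjusted p = 0.0669). In the trophoblast list, 2 of 24 tested genes were higher and 2 lower with no overlap, against 3.6% and 6.56% of all genes. Cdx2 rose, while Tfap2c, Fgfr2 and Cdh3, which trophoblast stem cells also express, fell. Gata2, the other higher gene of this list, differed by 0.87 ± 0.20 (adjusted p = 0.0556), with no overlap and no call. Tfap2c, a factor of the trophectoderm and germ cells, differed by -1.39 ± 0.20 (adjusted p = 0.00636) and Cdh3, placental cadherin, by -1.24 ± 0.18 (adjusted p = 0.00781). Elf5, which defines trophoblast stem cells, did not pass the filter on low values. Of 16 tested primitive streak and mesoderm genes, 1 was higher and 1 lower with no overlap and none was called. Mixl1 did not pass the filter, and Eomes overlapped between the arms with a difference of 0.63 ± 0.31 (adjusted p = 0.415). Cdh3 (adjusted p = 0.0524) missed the threshold on the values as deposited.

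**Figure D2:**
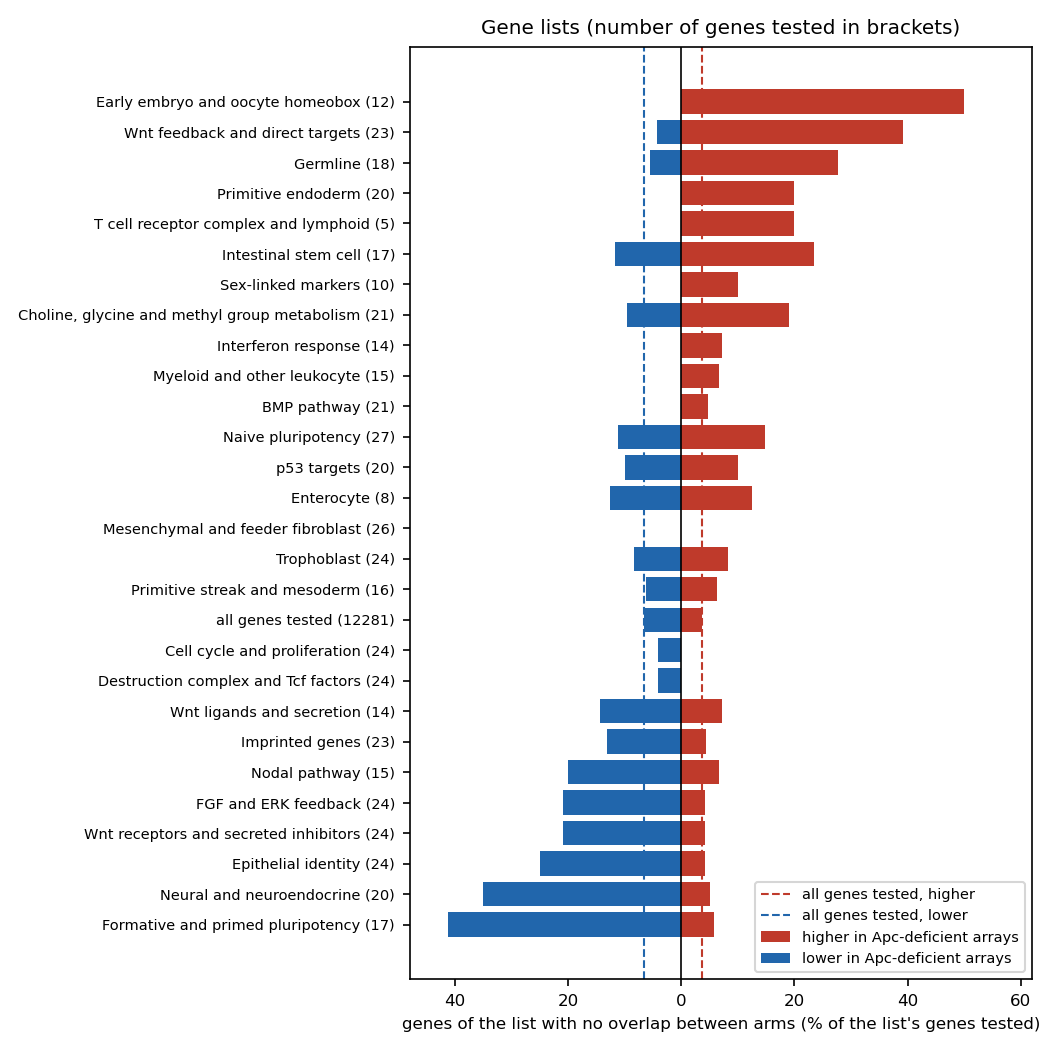
Share of each gene list whose values did not overlap between the arms (x axis, percent of the list's genes tested; red to the right for genes higher in the Apc-deficient arrays, blue to the left for genes lower there). Dashed lines give the shares of all genes tested, 3.6% and 6.56%. Early embryo and Wnt lists extend furthest to the right, and primed and neural lists furthest to the left. The lists were drawn up with earlier results of these data known.

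Genes of the early embryo showed the highest list median, 1.65. Of 12 tested, 6 were higher and none was lower with no overlap, and 5 rose. Tmem92, a membrane protein of 2-cell-like cells, had 9.44, 8.89, 9.42 and 9.09 in the Apc-deficient arrays, against 7.30, 7.20, 6.40 and 6.14 in the Apc-intact arrays and rose by 2.45 ± 0.27 (adjusted p = 0.00162). Zfp352, a zinc finger gene of the 2-cell embryo, had 9.89, 9.24, 9.62 and 8.74 in the Apc-deficient arrays, against 7.39, 7.92, 6.38 and 6.73 in the Apc-intact arrays and rose by 2.27 ± 0.35 (adjusted p = 0.00926). Tdpoz3 had 9.09, 8.41, 8.57 and 8.48 in the Apc-deficient arrays, against 6.61, 7.87, 5.63 and 5.66 in the Apc-intact arrays, with derivative #9 close to the Apc-deficient values, and rose by 2.19 ± 0.44 (adjusted p = 0.0325). Arg2, a mitochondrial arginase, rose by 1.88 ± 0.25 (adjusted p = 0.00471), and Usp17lc, a deubiquitinating enzyme with near-identical copies, by 1.43 ± 0.30 (adjusted p = 0.0387). In all of these 5 genes the Apc-intact ESC lines were lower than the derivatives. Obox6, an oocyte homeobox gene, was high in the RTCs but overlapped, with 11.52, 11.69, 11.67 and 10.04 in the Apc-deficient arrays, against 9.07, 10.63, 7.74 and 7.53 in the Apc-intact arrays. Rhox9 and Rhox6 of the same list went the other way, with overlap and no call. They differed by -2.39 ± 0.68 (adjusted p = 0.124) and -0.95 ± 0.35 (adjusted p = 0.243). With single arrays left out, limma no longer called Tdpoz3 for 6 of the 8 arrays (adjusted p up to 0.096, without the Apc Min/+ ESCs) and Usp17lc for 6 of the 8 arrays (adjusted p up to 0.124, without the Apc Min/+ ESCs). Like the other lists, this list was drawn up with earlier results of these arrays known, so that its direction is no independent evidence.

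Of 18 tested germline genes, 5 were higher and 1 was lower with no overlap. Dazl, an RNA-binding protein of germ cells, had 10.72, 11.07, 10.79 and 11.14 in the Apc-deficient arrays, against 9.16, 10.21, 8.32 and 8.81 in the Apc-intact arrays and rose by 1.80 ± 0.34 (adjusted p = 0.0242). Prdm1 (Blimp1), a repressor that specifies germ cells, differed by -0.63 ± 0.14 (adjusted p = 0.0471). Stk31, Taf7l, Tex101 and Nanos3 had no overlap and differed by 0.84, 0.67, 0.59 and 0.33, none called. These calls depended on single arrays, and leaving 1 out ended that of Dazl for 6 of the 8 arrays (adjusted p up to 0.085, without the Apc Min/+ ESCs) and Prdm1 for 8 of the 8 arrays (adjusted p up to 0.158, without RTC#2). The RTC line as a replicate block ended the call of Dazl (adjusted p = 0.0638) and Prdm1 (adjusted p = 0.118), and the values as deposited that of Prdm1 (adjusted p = 0.544). Among 23 tested imprinted genes, 1 was higher and 3 were lower with no overlap, against 3.6% and 6.56% of all genes, and 1 was called. That gene, Plagl1, a zinc finger factor expressed from the paternal allele, had 11.21, 11.15, 11.07 and 12.01 in the Apc-deficient arrays, against 8.54, 9.34, 9.01 and 9.12 in the Apc-intact arrays and rose by 2.35 ± 0.24 (adjusted p = 0.00117). Mest, Cdkn1c and Phlda2 were lower with no overlap (-1.07, -0.57 and -0.95), and none of these was called. The difference of Phlda2 ran between -1.37 and -0.33 over other scalings, filters, covariates and arrays left out. Its difference between RTCs and derivatives minus that among ESCs was 2.31, and the Apc Min/Min ESCs are a single array.

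Dmgdh and Bhmt2, enzymes of methyl group metabolism, rose. Of 21 tested genes of choline, glycine and methyl group metabolism, 4 were higher and 2 lower with no overlap. The shares of all genes were 3.6% and 6.56%, and the list median was -0.11. Dmgdh, which oxidises dimethylglycine, had 9.70, 9.70, 9.70 and 8.47 in the Apc-deficient arrays, against 6.64, 6.45, 6.47 and 6.62 in the Apc-intact arrays and rose by 2.85 ± 0.27 (adjusted p = 0.000811). The RTCs were at one level, the Apc Min/Min ESCs between them and the Apc-intact arrays. Bhmt2, a methyltransferase that makes methionine, had 9.31, 9.30, 9.72 and 8.07 in the Apc-deficient arrays, against 6.91, 7.08, 7.08 and 7.07 in the Apc-intact arrays and rose by 2.07 ± 0.30 (adjusted p = 0.00754). Its neighbour Bhmt, which uses betaine, had 8.78, 8.62, 8.87 and 7.24 in the Apc-deficient arrays, against 7.15, 7.13, 7.08 and 7.17 in the Apc-intact arrays. The Apc Min/Min ESCs were barely above the Apc-intact arrays for Bhmt, which was not called (adjusted p = 0.0862). Cbs, which diverts homocysteine to cystathionine, differed by 0.72 ± 0.18 (adjusted p = 0.0718), and the folate and aldehyde enzymes Mthfd1l and Aldh7a1 by -0.47 and -0.41, uncalled with no overlap.

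The largest rise of all was outside these lists. Pglyrp1, a secreted peptidoglycan recognition protein of innate immunity, had 11.57, 12.04, 11.86 and 11.36 in the Apc-deficient arrays, against 8.65, 7.41, 8.63 and 8.58 in the Apc-intact arrays and rose by 3.39 ± 0.29 (adjusted p = 0.000581). Derivative #9 was the lowest array. Flvcr2, a choline and haem transporter of the cell surface, had 9.85, 10.54, 10.30 and 10.98 in the Apc-deficient arrays, against 7.41, 8.45, 7.98 and 7.69 in the Apc-intact arrays and rose by 2.53 ± 0.28 (adjusted p = 0.00141). Cited1, an X-linked transcriptional co-activator that is also in the primitive endoderm list, had 10.75, 11.10, 11.40 and 11.18 in the Apc-deficient arrays, against 8.87, 8.38, 8.73 and 9.24 in the Apc-intact arrays and rose by 2.30 ± 0.21 (adjusted p = 0.000762). Pax8, a paired-box factor of thyroid and kidney, had 9.90, 9.87, 9.84 and 9.31 in the Apc-deficient arrays, against 7.90, 7.79, 7.71 and 7.39 in the Apc-intact arrays and rose by 2.03 ± 0.18 (adjusted p = 0.000741). Cd3g, a chain of the T cell receptor complex, had 8.48, 7.76, 8.33 and 7.31 in the Apc-deficient arrays, against 5.96, 5.81, 5.89 and 5.84 in the Apc-intact arrays and rose by 2.10 ± 0.24 (adjusted p = 0.00204). Of 5 tested genes of the T cell list it was the one called and the one with no overlap. Cd3e, another chain of the complex, differed by 0.41 ± 0.52 (adjusted p = 0.827), and Cd3d, Cd247, Cd4 and Cd8a did not pass the filter.

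Further falls outside the lists were led by Enpp3, an ectonucleotidase of the cell surface, with 8.59, 9.14, 8.69 and 8.75 in the Apc-deficient arrays, against 12.09, 12.36, 12.02 and 12.31 in the Apc-intact arrays and a difference of -3.40 ± 0.16 (adjusted p = 1.65e-05). It had the smallest adjusted p of the genes named here. Elmo1, a regulator of Rac signalling in cell migration, had 7.37, 7.29, 7.19 and 7.09 in the Apc-deficient arrays, against 9.96, 9.72, 9.27 and 9.42 in the Apc-intact arrays and differed by -2.36 ± 0.17 (adjusted p = 0.000242). Map7d3, an X-linked microtubule-associated protein, differed by -2.32 ± 0.23 (adjusted p = 0.00104) and Rragb, an X-linked GTPase that signals amino acid supply to mTORC1, by -2.06 ± 0.32 (adjusted p = 0.00979). Kcnk1, a potassium channel, differed by -1.80 ± 0.23 (adjusted p = 0.00344), Hsd17b14, a steroid dehydrogenase, by -1.87 ± 0.36 (adjusted p = 0.0264) and Ttpa, the vitamin E transfer protein, by -1.82 ± 0.38 (adjusted p = 0.0398). For these last 3 genes the Apc Min/Min ESCs were the lowest array, at 7.86, 8.31 and 5.59. Leaving out 1 array at a time ended the call of Hsd17b14 for 5 of the 8 arrays (adjusted p up to 0.0859, without the Apc Min/+ ESCs) and Ttpa for 7 of the 8 arrays (adjusted p up to 0.104, without the Apc +/+ ESCs). The values as deposited ended the call of Ttpa (adjusted p = 0.0527).

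**Figure D3:**
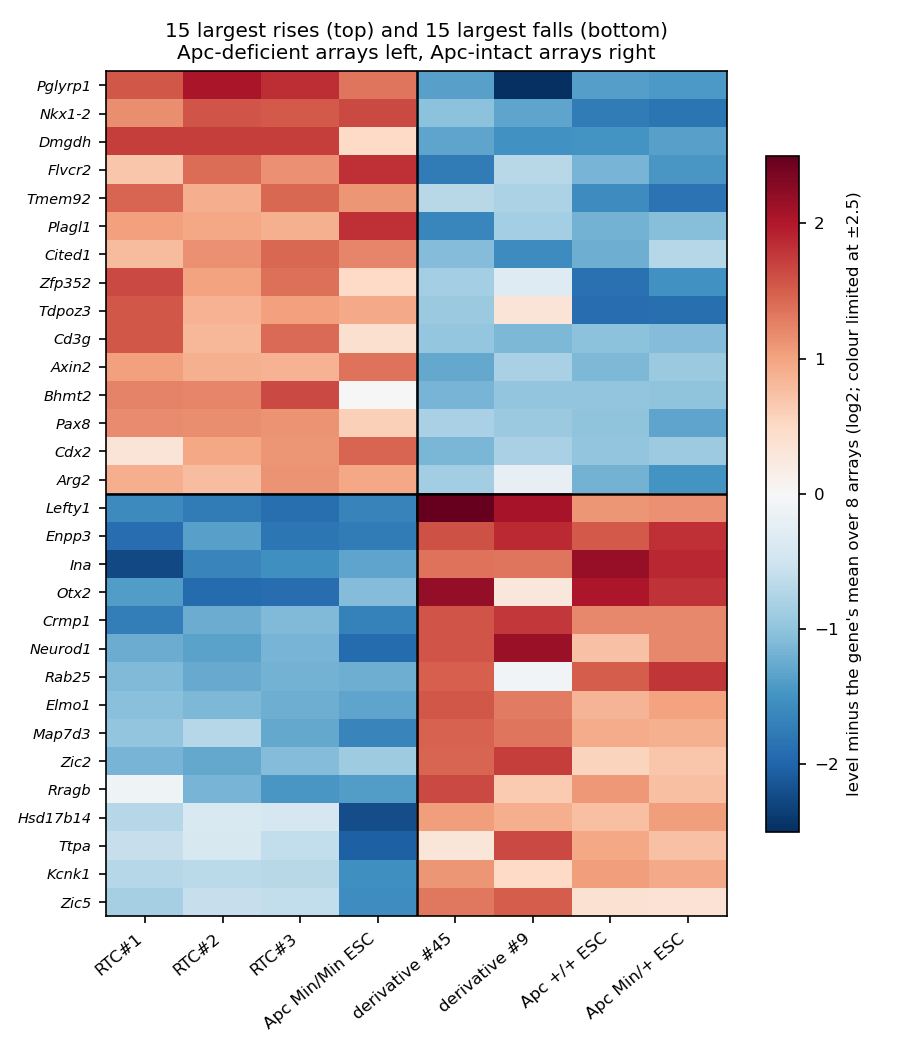
Level of the 15 genes with the largest rises (upper block) and the 15 with the largest falls (lower block) in each array, minus the gene's mean over the 8 arrays (colour, log2, limited at 2.5 either way). Apc-deficient arrays are the 4 columns on the left and Apc-intact arrays the 4 on the right. Rises are red on the left and falls blue on the left in every RTC line and in the Apc Min/Min ESCs, with Bhmt2 near its mean in the Apc Min/Min ESCs and Rragb near its mean in RTC#1.

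Genes of other functions were spread between the arms. Xaf1, an interferon-inducible regulator of cell death, rose by 1.72 ± 0.28 (adjusted p = 0.0122), and it was the only one of 14 tested interferon genes to be called or to have no overlap. Of the p53 targets 2 fell, Plk3 by 1.35 and Gadd45a by 0.78 on the log2 scale (adjusted p = 0.0323 and 0.0497). Of the 20 tested, 2 were higher and 2 lower with no overlap, against 3.6% and 6.56% of all genes. With single arrays left out, limma no longer called Plk3 for 5 of the 8 arrays (adjusted p up to 0.1, without RTC#3) and Gadd45a for 8 of the 8 arrays (adjusted p up to 0.151, without RTC#2). Not called with the RTC line as a replicate block were Xaf1 (adjusted p = 0.054), Plk3 (adjusted p = 0.0864) and Gadd45a (adjusted p = 0.0845), and not called as deposited were Plk3 (adjusted p = 0.0524) and Gadd45a (adjusted p = 0.193). Of 24 tested cell cycle genes none was called, and Ccne1, which encodes cyclin E1, was the one with no overlap, at -0.77 ± 0.28 (adjusted p = 0.236). Of 8 tested enterocyte genes, 1 was higher and 1 lower with no overlap, and the one called was Cdx1.

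Markers of other cells varied with single lines. None of 26 tested fibroblast genes was called or free of overlap, and the mean level of this list was 9.82 to 10.91 in the Apc-deficient and 9.66 to 10.97 in the Apc-intact arrays. Of 15 tested myeloid and other leukocyte genes, Adgre1 had no overlap and none was called. The list median was 0.65, against -0.03 for all genes, and 14 of the 15 had a higher mean in the Apc-deficient arrays. Among those that overlapped, Fcer1g differed by 1.56, C1qb by 1.53 and Tyrobp by 1.07, while Coro1a differed by -0.21. The mean level of that list was 8.67 in RTC#2 and 8.70 in RTC#3, against 7.23 to 7.95 in the Apc-intact arrays, while RTC#1 and the Apc Min/Min ESCs stood at 7.59 and 7.65. The defining genes Ptprc, Csf1r and Itgam did not pass the filter. Lyz2, the macrophage lysozyme, had 9.96, 11.78, 11.94 and 10.59 in the Apc-deficient arrays, against 11.23, 9.05, 7.77 and 8.08 in the Apc-intact arrays, so that derivative #45 lay above RTC#1. Lilrb4a, a leukocyte gene that rose, had 7.29, 8.05, 8.53 and 8.18 in the Apc-deficient arrays, against 7.34, 6.27, 5.94 and 6.41 in the Apc-intact arrays, with an adjusted p of 0.0443. The part of such cells in the rises of Pglyrp1 and Lilrb4a was not tested. In bulk arrays, fewer cells of a type and less RNA per cell cannot be told apart.

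Primitive endoderm genes were highest in the Apc Min/Min ESCs. Their list mean was 10.44 there and 8.69, 9.70 and 9.42 in RTC#1, RTC#2 and RTC#3, against 8.70 to 9.07 in the Apc-intact arrays. Gata4, a defining factor of that lineage, had 8.42, 9.99, 9.32 and 11.60 in the Apc-deficient arrays, against 8.30, 8.32, 8.07 and 8.28 in the Apc-intact arrays, with no overlap and no call (adjusted p = 0.195). Sox17 had 6.54, 9.01, 8.10 and 10.93 in the Apc-deficient arrays, against 6.98, 6.67, 6.70 and 6.60 in the Apc-intact arrays, and RTC#1 lay below all Apc-intact arrays. Lama1, a basement membrane laminin, differed by 1.51 ± 0.41 (adjusted p = 0.101). Of 20 tested genes of this list, 4 were higher with no overlap and 2 rose, Cited1 and Hnf4a. Hnf4a, a nuclear receptor of endoderm, differed by 0.91 ± 0.16 (adjusted p = 0.0155). This call depended on single arrays, and leaving 1 out ended that of Hnf4a for 3 of the 8 arrays (adjusted p up to 0.0638, without RTC#2). On the values as deposited, Hnf4a (adjusted p = 0.165) missed the threshold.

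The 2 cell origins were then compared by an interaction term, the RTC difference (RTCs minus derivatives) minus the ESC difference (Apc Min/Min minus Apc +/+ and Apc Min/+). It was called for 59 genes (0.48%), 38 with a higher and 21 with a lower RTC difference. The Apc-deficient side of the ESC origin is a single array with no replicate. It was taken to vary like the other groups, from which the whole estimate of spread comes, so that a call cannot tell cell origin from that array or its medium. Ascl2, a Wnt-responsive factor of intestinal stem cells, had 9.57, 10.06, 9.96 and 7.61 in the Apc-deficient arrays, against 8.18, 8.82, 9.68 and 9.67 in the Apc-intact arrays. It was higher in the RTCs than in their derivatives and lower in the Apc Min/Min ESCs than in the Apc-intact ESCs, an interaction of 3.43 ± 0.39 (adjusted p = 0.0235). Crxos, an embryonic homeobox gene, had 10.18, 9.82, 9.93 and 5.94 in the Apc-deficient arrays, against 7.08, 7.42, 6.14 and 6.22 in the Apc-intact arrays, with an interaction of 2.97 ± 0.30 (adjusted p = 0.0216). Kcnma1, a calcium-activated potassium channel, had 9.62, 9.08, 8.79 and 11.78 in the Apc-deficient arrays, against 8.38, 9.46, 6.43 and 6.08 in the Apc-intact arrays. The RTCs and their derivatives overlapped, while the Apc Min/Min ESCs lay far above the Apc-intact ESCs, an interaction of -5.28 ± 0.58 (adjusted p = 0.0235). Nr4a3, an orphan nuclear receptor, and Ereg, the growth factor epiregulin, were highest in the Apc Min/Min ESCs, at 10.18 and 11.47, with interactions of -4.22 and -2.91 (adjusted p = 0.0251 and 0.0476). For Axin2 and Nkx1-2 the interaction was -0.40 and -0.85 (adjusted p = 0.547 and 0.215), and for Lefty1 -1.28 (0.116). The count was 0 without RTC#3, without the Apc +/+ ESCs and without the Apc Min/+ ESCs, 7 without RTC#2, 287 without RTC#1, 128 without derivative #9 and 1238 without derivative #45. It was 18 on the values as deposited and 0 under a stricter filter on low values.

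**Figure D4:**
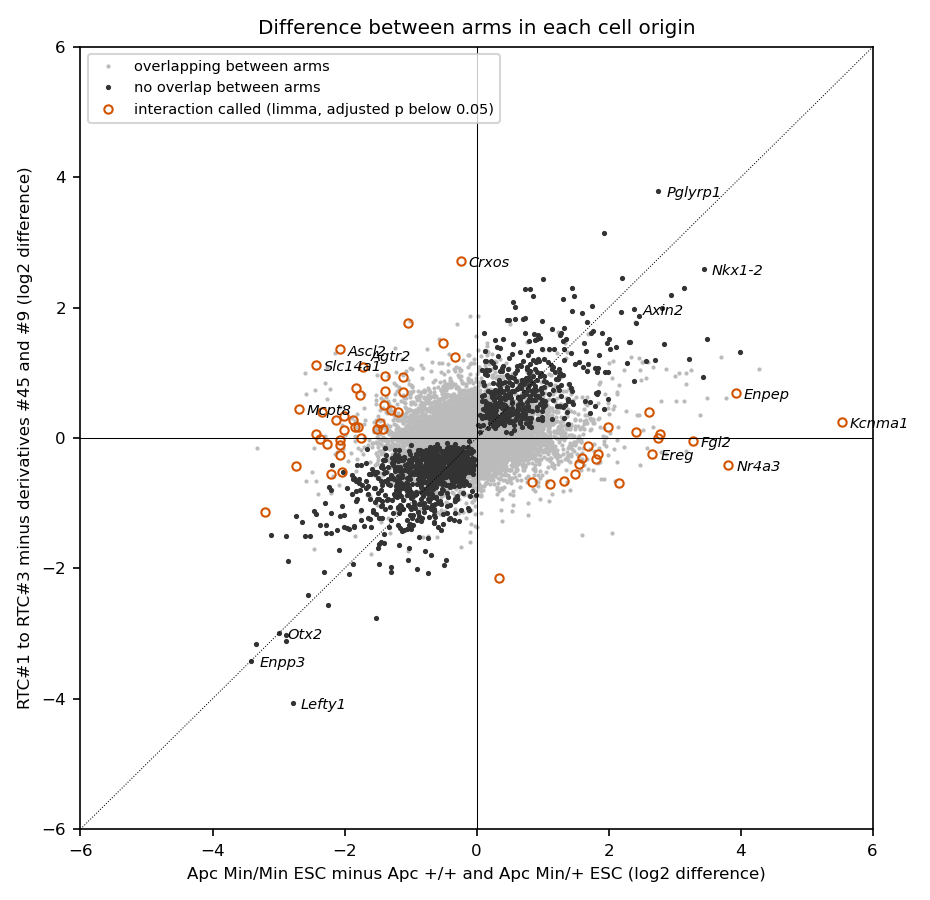
Difference between the arms within ESCs (x axis, Apc Min/Min minus the mean of Apc +/+ and Apc Min/+ ESCs, log2) and within the RTC origin (y axis, mean of RTC#1 to RTC#3 minus the mean of derivatives #45 and #9, log2), each point 1 of 12281 genes. Dark points are the 1248 genes with no overlap, which the rule places where both differences have one sign, and open circles are the 59 genes with a called interaction, which lie away from the dotted line of equal differences.

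By single pairs of arrays, 132 of the 442 higher genes lay 2-fold or more higher in RTC#1 than in its derivative #45, 120 in RTC#3 against its derivative #9, and 116 in the Apc Min/Min ESCs against the Apc +/+ ESCs. Of the 806 lower genes 178, 143 and 217 lay 2-fold or more lower in the same 3 pairs. All genes of the 442 and 806 point the same way in these pairs because the rule requires it. An array outside the rule was the S33 array of pluripotent cells without doxycycline, whose Apc status the labels do not state. It lay below all Apc-deficient arrays for 401 of the 442 higher genes (90.7%) and above them all for 708 of the 806 lower genes (87.8%). Of all genes tested, this array lay below all Apc-deficient arrays for 24.4% and above them all for 28.2%. The 442 and 806 genes were chosen for Apc-deficient values beyond all Apc-intact ones, which by itself places a further array beyond them often. The shares of all genes are thus no background for the chosen genes, and 90.7% and 87.8% are a description.

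By position, 42 of 392 tested X-linked genes were lower with no overlap (10.7%, against 6.56% of all genes) and 17 were higher (4.34%, against 3.6%). The next highest shares of lower genes were 9.12% on chromosome 10, 8.39% on chromosome 18 and 8.26% on chromosome 7. Of the X-linked genes 14 fell (3.57%, against 1.31% of all genes) and 3 rose, where 1.07% of all genes did. Xist, the RNA of the inactive X chromosome, had 8.57, 8.01, 7.57 and 10.00 in the Apc-deficient arrays, against 7.69, 6.75, 8.49 and 8.75 in the Apc-intact arrays, and the arms overlapped. Of the Y-linked genes, Zfy1 was higher with no overlap, at 10.71, 10.59, 9.54 and 9.32 in the Apc-deficient arrays, against 8.92, 8.91, 7.01 and 7.58 in the Apc-intact arrays, and was not called. Of 10 tested sex-linked markers it was the one with no overlap, and none was called. Without the X and Y genes, 274 genes were called.

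The genes with no overlap were then read in the contrasts that share no array with the 8. The design text lists a mutant form of beta-catenin that was induced in ESCs and in fibroblasts. The S33 cells with doxycycline are taken here to be these, and the labels give neither dose nor duration. With 1 array per condition there is no test, and counts are of genes 2-fold or more apart. In S33 ESCs with doxycycline 120 of the 12281 genes were higher (0.977%) and 233 were lower (1.9%). Of the 442 higher genes 30 were also higher there (6.79% of the 442 and 25% of the 120) and 2 were lower. Of the 806 lower genes 35 were also lower (4.34% of the 806 and 15% of the 233) and 3 were higher. The median S33 difference was 0.20 for the 442 and -0.07 for the 806, against 0.01 for all genes.

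Dazl stood at 9.49 with and 7.33 without doxycycline in S33 ESCs. Dmgdh stood at 8.18 with and 6.62 without it. Pglyrp1 differed by 1.41, Tbx3 by 1.24 and Xaf1 by 1.56, so that these 5 genes were 2-fold or more higher with doxycycline. On the other side, Lefty1 stood at 10.38 with and 12.13 without doxycycline, Rab25 differed by -1.64, Ina by -1.36, Slc27a2, a fatty acid transporter, by -1.62 and Sema3e, a secreted guidance cue, by -1.40. Fndc3c1, an X-linked gene, fell by 1.65 on the log2 scale in the Apc-deficient arrays (adjusted p = 0.0037) and differed by -3.45 in S33 ESCs. Its call ended when the S33 array without doxycycline was added to the Apc-intact arm (difference -2.21, adjusted p = 0.0505). Among the Wnt feedback genes, Axin2 stood at 9.35 with and 9.14 without doxycycline, Nkx1-2 at 7.92 and 7.98, and Lef1 at 7.78 and 10.37. Neurod1 went the opposite way, with a difference of 1.99.

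**Figure D5:**
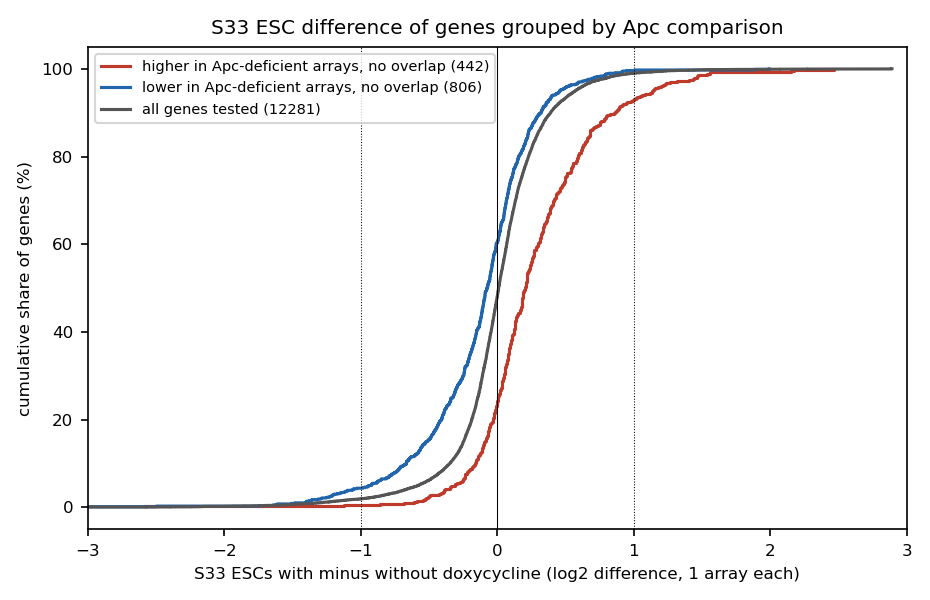
Cumulative share of genes (y axis, percent) by their difference between S33 ESCs with and without doxycycline (x axis, log2, 1 array each, drawn between -3 and 3). The red curve is the 442 genes higher and the blue curve the 806 genes lower in the Apc-deficient arrays, and the dark grey curve is all 12281 genes. The red curve lies to the right and the blue curve to the left of the grey one, with medians of 0.20, -0.07 and 0.01.

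In S33 fibroblasts with doxycycline 217 genes were 2-fold or more higher (1.77%) and 376 lower (3.06%). The 442 higher genes split into 13 higher and 18 lower there, and the 806 lower genes into 33 lower and 19 higher. Several feedback genes of the Wnt list were 2-fold or more higher with doxycycline in these fibroblasts. Axin2 stood at 11.27 with and 8.60 without doxycycline, Notum at 10.60 and 7.30, Nkd2 at 12.42 and 9.25, and Rnf43 at 10.14 and 7.67. Nkx1-2 and Cdx2 stayed near the lower end of the scale, at 7.71 and 7.30 with doxycycline.

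Intestinal organoids and fibroblasts derived from #45 were treated with 4-hydroxytamoxifen (4-OHT) for 2 days, at 1 µM and 2 µg/ml. The labels do not say what 4-OHT does to Apc in these cells. In the organoid pair 237 genes were 2-fold or more higher (1.93%) and 54 lower (0.44%) with 4-OHT. This split rests on the scaling: it was 84 higher and 870 lower on the values as deposited and 524 higher and 23 lower with arrays centred on their medians. Of the 442 higher genes 16 were also higher (3.62%) and 3 lower, and of the 806 lower genes 5 were also lower and 21 higher. Tnfrsf19 stood at 11.81 with and 9.92 without 4-OHT, Sp5 at 10.28 and 9.17 and Notum at 8.55 and 7.50. Axin2 was already at 11.30 without 4-OHT and stood at 11.81 with it. Among genes outside the Wnt list, Scd3, a fatty acid desaturase, differed by 2.04 and Rerg, a Ras-like GTPase, by 1.39, both of which rose in the Apc-deficient arrays. Their differences there were 0.97 ± 0.15 (adjusted p = 0.00866) for Scd3 and 1.78 ± 0.26 (adjusted p = 0.00781) for Rerg. The values as deposited ended the call of Scd3 (adjusted p = 0.126). In the fibroblasts, limma called none of 11603 genes (0%), with 519 at an unadjusted p below 0.05. With the number in the titles as a replicate block 148 were called, and the labels do not say what that number marks. Axin2 stood at 8.53 and 8.81 with 4-OHT, against 8.55 and 8.63 without it, a difference of 0.08 (adjusted p = 1).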

How the data were processed

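RNA of 18 mouse samples was hybridised to 1-colour whole-transcript arrays, 1 array per sample. The authors deposited linear intensity values for 28856 probe sets, 3 of them without values. The labels do not say how the probes were summarised and scaled. Between the Apc Min/Min and Apc +/+ ESC arrays 17.3% of values were identical, and both arrays had a minimum of 17. Between the #45 fibroblast arrays numbered 2, without and with 4-OHT, 19.2% were identical. The derivative of RTC#3 shared 11.7% and 9.52% of values with these arrays, in that order. The next pair listed shared 0.104%. The cause of these identical values was not tested. Intensities were converted to log2 from the deposited values and quantile normalized over all 18 arrays (limma 3.58.1, R 4.3.3). Of the probe sets, 21789 had 1 gene symbol in the platform annotation, 1621 several and 5443 none, and 21698 symbols matched RefSeq. For each of 19938 genes the brightest probe set (mean over all arrays) was kept. Genes above the array median (percentile 50) in at least 1 compared array were tested with limma's lmFit and eBayes, and p-values were adjusted by Benjamini-Hochberg over all genes tested. The procedure was tested on simulated data, with noise drawn independently for each gene and array. That simulation does not cover related arrays such as RTC#2 and RTC#3. Promoter motifs were counted and figures drawn with Python 3.11.15 and matplotlib 3.10.9.

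The labels tie RTC#1 to derivative #45 and RTC#3 to derivative #9, so the line was also fitted as a replicate block. Across genes, the difference of RTC#1 minus RTC#3 correlated at 0.0761 with that of derivative #45 minus derivative #9. Named genes were those of fixed interest (Axin2, Cdx2, Lgr5, Nanog, Pou5f1, Ctnnb1 and Apc), the 15 largest rises and 15 largest falls with no overlap, called or non-overlapping members of 27 gene lists, the genes nearest the overlap threshold, the 5 largest interactions each way, and the genes most different in S33 ESCs or organoids. Other list members were added for comparison after their values were seen. The genes described and the lists were chosen with earlier results of these data known. Alternatives were other scalings, filters, probe set rules, covariates and arrays left out in turn.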

Additional observations from a re-analysis of the deposited data

Results flagged for a closer look

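Several genes had 1 array far from the other 3 of its arm, by the gap to the nearest value divided by the range, a criterion that chance meets in about 1 of 20 groups. Both arms of many genes were searched, so a number of such arrays arise by chance, and none of those below was tested. The Apc Min/Min ESCs stood apart from the RTCs for 7 genes. They were higher for Lgr5 (8.32, against 6.32 to 6.48 in the RTCs), Plagl1 (12.01, against 11.07 to 11.21) and Fgfr2 (8.77, against 7.41 to 7.50). They were lower for Dmgdh (8.47, against 9.70), Pax8 (9.31, against 9.84 to 9.90), Ttpa (5.59, against 7.02 to 7.23) and Kcnk1 (7.86, against 8.68 to 8.71). Derivative #9 was low for Pglyrp1 (7.41, against 8.58 to 8.65 in the other Apc-intact arrays) and for Rab25 (8.66, against 10.22 to 10.50). Derivative #45 was low for Bhmt2 (6.91, against 7.07 to 7.08), and RTC#1 was low for Tubb3 (6.61, against 7.08 to 7.12 in the other Apc-deficient arrays).

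Limma's interaction term, the RTC difference minus the ESC difference (log2), passed the threshold for the genes that follow. It was positive for Slc14a1, a urea transporter (3.56), Ascl2 (3.43), Mcpt8, a mast cell protease (3.14), Crxos (2.97), Agtr2, an angiotensin receptor (2.82), and Phlda2, an imprinted growth regulator (2.31). It was negative for Kcnma1 (-5.28), Nr4a3 (-4.22), Fgl2, a fibrinogen-like protein (-3.32), Enpep, a membrane aminopeptidase (-3.23), and Ereg (-2.91). The 5 largest in each direction lost their call in 3 to 6 of 12 to 14 alternatives each, with adjusted p up to 0.2337 and no change of sign. The Apc Min/Min side of each interaction is 1 array with no replicate, and cell origin cannot be told apart from that array. The count of such genes ran between 0 and 1238 with single arrays left out.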

How the results depend on the processing

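The number of genes called, 293, was 118 on the values as deposited, 651 with cell origin as a covariate (all 293 among them) and 458 with the S33 ESC array without doxycycline added to the Apc-intact arm. It ran between 138 and 359 with single arrays left out. With the RTC line as a replicate block 289 were called, 192 of them shared. The 1248 genes with no overlap became 503 as deposited and 1672 with arrays centred on their medians (16.5% higher, against 35.4%), and 1475 to 1976 with single arrays left out, where fewer arrays have to be separated. The 59 interactions became 18 as deposited, 0 under the stricter filter, 20 with every probe set as its own feature and 0 to 1238 with single arrays left out. The count in #45 fibroblasts was 148 with the title number as a replicate block, against 0. The labels do not say what that number marks, and the deviations of same-numbered arrays correlated at 0.855. The organoid count of 291 became 954 as deposited, 547 with median centring and 464 with no filter. The cause of these shifts was not tested, apart from the arrays left out.

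Of 67 named genes called, 35 kept the call in each alternative run, 32 lost it in at least 1 and 0 changed sign. The near-zero, uncalled differences changed sign. That of Apc was -0.0511 as deposited, -0.1308 with median centring, -0.0371 with the S33 array added and -0.1985 to 0.1295 with single arrays left out. That of Pou5f1 was -0.0511 as deposited, -0.1308 with median centring, -0.0153 with origin as a covariate and -0.0316 with the replicate block, and ran between -0.026 (without RTC#3) and 0.0561 with single arrays left out. Nanog was at -0.0544 with median centring. Ctnnb1 was at 0.0543 with origin as a covariate, 0.0389 with the replicate block, and -0.095 to 0.0553 with single arrays left out. The interaction cannot be fitted without the Apc Min/Min array, which left that alternative with no value. The array gives 4 values per arm and no read depth, so small differences of dim genes are limited by signal over background.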
